A study of Homo sapiens with 12 samples.

Results

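The genes described here encode secreted factors that act on blood vessels, lymphatic vessels and neighbouring cells: the vascular endothelial growth factors VEGFA, VEGFB and VEGFC, placental growth factor (PGF), the angiopoietins ANGPT1 and ANGPT2, the angiopoietin-like protein ANGPTL4, basic fibroblast growth factor (FGF2) and hepatocyte growth factor (HGF). They were chosen by symbol, with earlier results of these data known, and all 9 of them are among the 16383 genes of the deposited table. RNA was measured by poly(A) sequencing in 12 libraries of IMR90, an established line of human lung fibroblasts of wild-type genotype, in 4 groups of 3 libraries. Proliferating cells received no treatment. The other cells were made senescent by ionizing radiation, 20 Gy given over 10 min, and RNA was taken on day 11. They received the solvent DMSO, palbociclib or ruxolitinib. Palbociclib inhibits CDK4 and CDK6, kinases that drive entry into the cell cycle, and ruxolitinib inhibits JAK1 and JAK2, kinases that act below cytokine receptors. Each inhibitor was used at 2 µM and added 4, 6, 8 and 10 days after the exposure. Proliferating cells had neither radiation nor DMSO, so these cannot be told apart in that comparison. Nothing says that the 3 libraries of a group came from separate cultures, and p-values therefore measure the spread between these libraries, which may be technical. All 12 come from 1 cell line.

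VEGFA binds the receptor kinases FLT1 and KDR on endothelial cells and drives their growth and permeability, VEGFB and PGF bind FLT1 but not KDR, and VEGFC binds FLT4 and KDR and drives the growth of lymphatic vessels. ANGPT1 activates the receptor kinase TEK (TIE2) and stabilises vessels, and ANGPT2 competes with it at the same receptor. ANGPTL4 inhibits lipoprotein lipase and is a known target of PPAR nuclear receptors and of hypoxia. FGF2 signals through FGF receptors together with heparan sulfate chains, and HGF, a product of fibroblasts and other mesenchymal cells, activates the receptor kinase MET on epithelial and endothelial cells. Growth factors of this kind belong to the secretory programme that senescent fibroblasts are known for.

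Promoter sequence is shown for the genes that were at least 2-fold higher in senescent DMSO cells than in proliferating cells and have an entry in the RefSeq promoter table (GRCh38.p14), so that the letters before their starts can be read beside that change. Each run is the part of the 250 bases before a transcript start that holds no annotated exon, 5′ to 3′ on the gene's strand. Capitals mark a TATA box (TATAAA) or the core of a hypoxia response element (ACGTG or GCGTG on either strand). The ANGPTL4 run is chr19:8363905-8364154 on the plus strand, and the FGF2 run is chr4:122826581-122826681 on the plus strand. The PGF run, before the upstream of 2 listed starts, is chr14:74955765-74956014 on the minus strand. The ANGPTL4 run lies inside the gene span given further below, which starts at 8363289. The listed PGF start, 74955764, lies outside the span given for PGF, which ends at 74955626.
ANGPTL4: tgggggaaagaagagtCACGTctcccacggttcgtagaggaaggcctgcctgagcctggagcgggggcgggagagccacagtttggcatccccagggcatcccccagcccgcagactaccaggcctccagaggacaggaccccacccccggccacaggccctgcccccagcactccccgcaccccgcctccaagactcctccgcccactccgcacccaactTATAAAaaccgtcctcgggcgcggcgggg
FGF2: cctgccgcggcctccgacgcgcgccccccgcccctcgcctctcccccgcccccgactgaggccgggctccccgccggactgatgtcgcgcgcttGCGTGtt
PGF: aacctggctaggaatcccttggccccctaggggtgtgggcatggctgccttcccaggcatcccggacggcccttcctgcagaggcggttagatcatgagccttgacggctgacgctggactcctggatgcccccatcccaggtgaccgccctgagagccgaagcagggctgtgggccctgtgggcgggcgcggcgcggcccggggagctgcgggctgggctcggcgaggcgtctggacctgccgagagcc

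Of the 9 genes, 6 had an entry in that table (VEGFB, VEGFC, PGF, ANGPTL4, FGF2 and HGF), with 7 windows in all since PGF has 2. ANGPTL4 was the gene with a TATAAA, 29 bases before its start, a sequence that 6.80% of the 35116 promoter windows of 250 bases hold on the sense strand. It also held ACGTG on the other strand, 234 bases before its start, which 18.5% of all windows hold on either strand. GCGTG, which differs from ACGTG in its first letter, was found in 5 of the 7 windows, against 32.2% of all windows. These were the windows of FGF2 (156 bases before the start), VEGFB, VEGFC, HGF and the downstream PGF start (162 bases before it). That PGF window is not printed above and overlaps the one that is. None of the 7 windows held TGANTCA (AP-1, 6.57% of all windows), an NF-kB motif (5.67%), TTCNNNGAA (STAT factors, 6.57%), an interferon response motif (3.02%) or the E2F motifs TTTGGCGC and TTTCCCGC (1.93%), each searched on both strands. The share of G and C was 68.8% in the ANGPTL4 window, 75.2% for FGF2, 70.8% and 80% for PGF, 82.8% for VEGFB, 74% for VEGFC and 50% for HGF, and the median window of all genes had 58%. A match of such short motifs is a description of the letters and not a binding site.

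Recovered reads per library ranged from 14106799 to 21762412. All 12 fibroblast markers reached a mean of 10 normalized counts, among them COL1A1, COL1A2 and VIM. Of the markers of other cells, 4 of 10 endothelial, 3 of 9 epithelial and 3 of 8 leukocyte genes did so, and TYROBP and NKX2-1 were at 0. The marker sums moved with the groups. Fibroblast markers summed to 884121 to 918689 normalized counts per proliferating library, 443459 to 450121 per DMSO library, 689528 to 722544 per palbociclib library and 551659 to 557908 per ruxolitinib library, with 10 of 12 lower in senescent DMSO cells and 9 of 12 higher with palbociclib. Leukocyte markers, mostly the lysosomal protein CD68, summed in the same order to 552 to 578, 1248 to 1337, 722 to 829 and 1095 to 1179, and epithelial markers to 185 to 237, 234 to 252, 231 to 254 and 167 to 173. All 3 leukocyte genes with a test (CD14, SPI1 and CD68) rose in senescent DMSO cells, CD14 and CD68 fell with palbociclib, and PTPRC had a mean of 2.83. The part of these shifts in the changes of the 9 genes was not tested. The authors' scaling left a different sum of normalized counts in each group, over the 16383 genes of the table only. For proliferating cells it was 19409359 ± 336467 (SD, n = 3) and for palbociclib 19369896 ± 68982. For DMSO it was 16554893 ± 192963 and for ruxolitinib 16844894 ± 60521. The table ends at Entrez gene 140467, so neither these sums nor the recovered reads are whole-library totals. If each library is instead scaled to an equal sum, here called the same total, the median gene of the DMSO against proliferating comparison shifts by 0.23 (log2) and that of palbociclib against DMSO by -0.23. Over all genes tested the split of calls at the same total moves from 3714 higher and 4420 lower to 5273 and 2970 in the former comparison, and from 2927 higher and 2505 lower to 940 and 5170 in the latter. Between palbociclib and ruxolitinib it moves from 2561 and 1983 to 847 and 4531, and between ruxolitinib and proliferating cells from 3670 and 4443 to 5034 and 3137. The other scaling tried sets the upper quartile of all libraries equal, here called the same upper quartile. All fold changes that follow use the scaling as deposited, and calls that another scaling ends are given beside them. In bulk RNA, fewer cells that express a gene and less RNA of it per cell cannot be told apart.

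**Figure D1:**
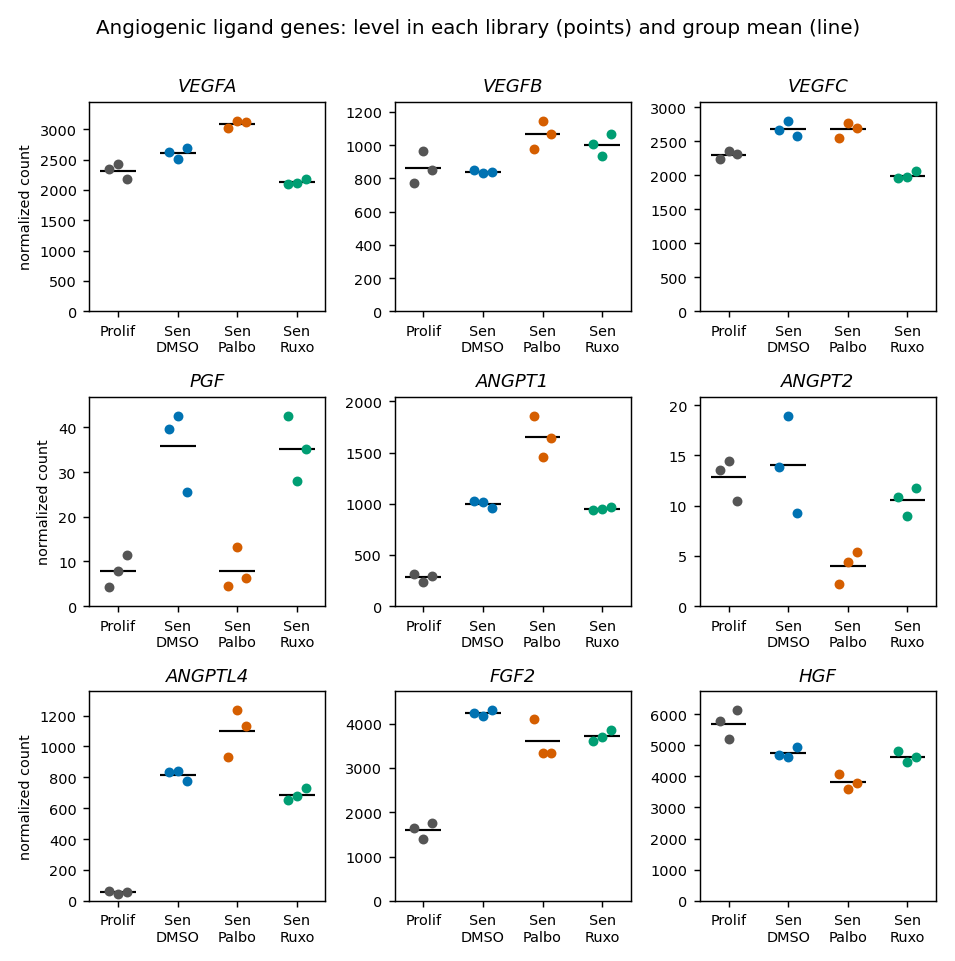
Normalized counts of the 9 ligand genes in proliferating cells (Prolif) and in senescent cells given DMSO, palbociclib (Palbo) or ruxolitinib (Ruxo). Each point is a library, each line the mean of 3 libraries, and every axis starts at 0. ANGPT1, ANGPTL4 and FGF2 are higher in all 9 irradiated libraries than in the proliferating ones, and PGF and ANGPT2 are lowest on average with palbociclib or in proliferating cells.

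The comparison of senescent DMSO cells with proliferating cells addressed what irradiation-induced senescence changed. ANGPTL4 (15-fold), PGF (4.37-fold), ANGPT1 (3.57-fold) and FGF2 (2.65-fold) rose, VEGFA and VEGFC rose by less than 1.2-fold, and HGF fell by a similar small amount. ANGPT2 and VEGFB were not called. That is 6 of 9 genes higher, 1 lower and 2 not called at an adjusted p under 0.05 (limma), and 72.4% of all genes tested were called in this comparison, 33% as higher and 39.3% as lower. The 3 libraries of each group did not overlap for 7 of the 9 genes, against 75.1% of all genes. At least 2-fold higher were 4 of the 9, against 11.1% of all genes. PGF, among these 4, had a proliferating mean of 7.78, below the overall mean of 10 that a test required. It was tested through its level in other groups, so its place in this count is no support. The median log2 fold change was 0.22 for the 9 genes and -0.05 for all genes. Scaled to the same total, 7 of the 9 were higher and none lower, and HGF lost its call.

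The comparison of palbociclib with DMSO in irradiated cells addressed what CDK4 and CDK6 inhibition changed. ANGPT1 rose 1.64-fold, ANGPTL4 1.34-fold, VEGFB 1.26-fold and VEGFA 1.19-fold, and PGF fell 4.39-fold, ANGPT2 3.03-fold, HGF 1.24-fold and FGF2 1.18-fold. VEGFC had the same level in both groups within the spread. Thus 4 of the 9 genes were higher, 4 lower and 1 not called, and 48.3% of all genes tested were called, 26% as higher and 22.3% as lower. Groups did not overlap for 8 of 9, against 54.8% of all genes. At least 2-fold lower were 2 genes, PGF and ANGPT2, and 5.39% of all genes. Their palbociclib means, 7.93 and 3.97, lie below the overall mean of 10 that a test required. They were tested through their levels in other groups, so this count is no support for a difference from all genes. Medians of the log2 fold change were -0.003 for the 9 and 0.02 for all genes. Only ANGPT1 remained called as higher at the same total, where 5 were lower.

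Ruxolitinib against DMSO, the comparison that addressed Janus kinase inhibition, gave 2 calls among the 9. VEGFC fell 1.34-fold and VEGFA 1.23-fold, and the other 7 were not called. No gene of the 9 was higher and 2 were lower by limma, the edgeR quasi-likelihood test and DESeq2 alike. At an unadjusted p under 0.05 limma had 1 higher and 4 lower. That count has no share of all genes beside it, so it is no support for an effect on the 9 as a set. Of all genes 4.52% were called by limma, 1.1% as higher and 3.42% as lower. The edgeR test called 153 of 11242 genes as higher and 403 as lower, and DESeq2 called 199 and 449 of 11233. Genes under the unadjusted threshold were not counted over all genes. For 5 of the 9 the groups did not overlap (VEGFA, VEGFB, VEGFC, ANGPTL4 and FGF2), against 31.9% of all genes. The median log2 fold change was -0.19 for the 9 genes and -0.003 for all genes. With a fit of only these 2 groups 5 of the 9 were called, VEGFB as higher and ANGPTL4 and FGF2 as lower besides VEGFA and VEGFC. That fit called 843 of the 11242 genes tested as higher and 998 as lower. Both inhibitor comparisons use the same 3 DMSO libraries.

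**Figure D2:**
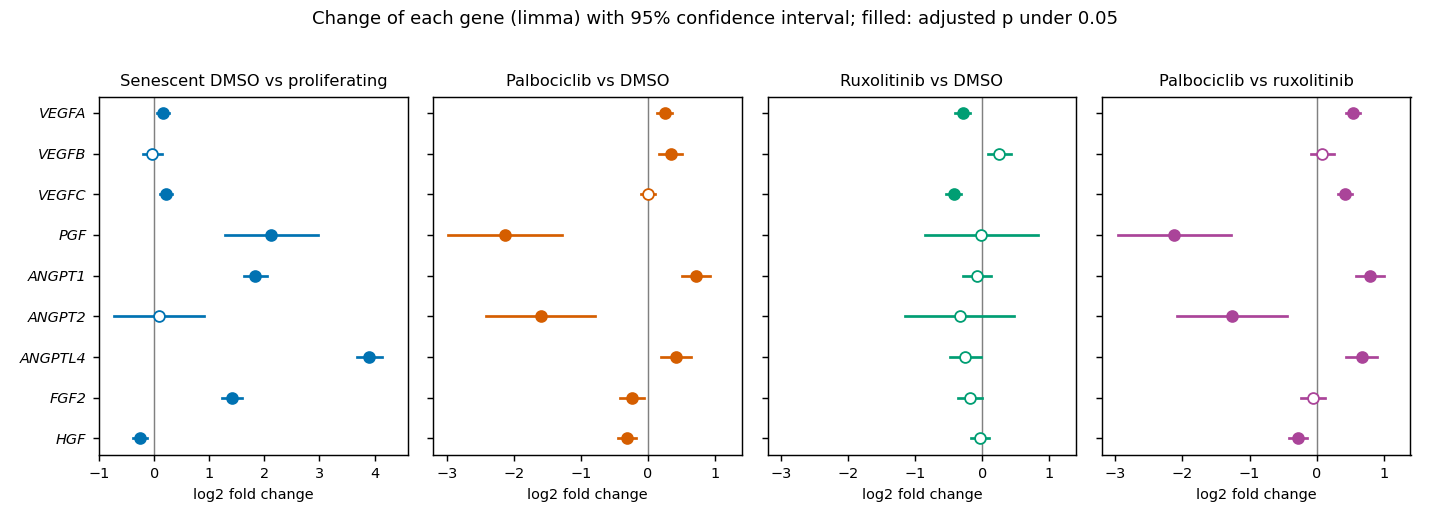
Log2 fold change of each gene with its 95% confidence interval (limma), in 4 comparisons, where filled points had an adjusted p under 0.05. ANGPTL4 has the largest change of the 9 in senescence (log2 3.90), PGF and ANGPT2 lie furthest to the left under palbociclib (-2.13 and -1.60), and VEGFA and VEGFC are the filled points under ruxolitinib.

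VEGFA (Entrez gene 7422; hg38 chr6:43770184-43786487, plus strand) had 2347, 2433 and 2181 normalized counts in proliferating libraries A125, A126 and A127 and 2624, 2509.7 and 2687 in DMSO libraries A116, A117 and A118. It had 3024, 3138 and 3123 in palbociclib libraries A119, A120 and A121 and 2091, 2112 and 2173 in ruxolitinib libraries A122, A123 and A124. The libraries of every group follow this order throughout. No 2 groups overlapped, and the order from low to high was ruxolitinib, proliferating, DMSO and palbociclib. Against proliferating cells, DMSO cells were higher by 0.17 (log2, SE 0.05, adjusted p 0.00782). Against DMSO, palbociclib cells were higher by 0.25 (SE 0.05, adjusted p 0.00101), a call lost at the same total (0.02, adjusted p 0.761), and with ruxolitinib VEGFA dropped by 0.29 (adjusted p 0.00263), a call kept under all 22 alternatives. The level with ruxolitinib was below that of proliferating cells at the authors' scaling (-0.13, adjusted p 0.0383) and above it at the same total (0.08) and the same upper quartile (0.04), so which of these neighbours is lower depends on the scaling. In 9 more alternatives that call was lost. Gene counts do not separate the splice forms of VEGFA, which differ in how tightly the protein binds heparan sulfate.

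VEGFC (7424; chr4:176683538-176792922, minus strand), the lymphatic ligand, had 2243, 2350.1 and 2307 normalized counts in proliferating cells, 2664, 2799.7 and 2579 with DMSO, 2555, 2769.5 and 2700.4 under palbociclib and 1953, 1971 and 2058 under ruxolitinib. All ruxolitinib libraries lay below all others, and the DMSO and palbociclib libraries overlapped. VEGFC rose by 0.22 in senescent DMSO cells (SE 0.05, adjusted p 0.00109) and dropped by 0.43 with ruxolitinib (SE 0.05, adjusted p 6.08e-05), and both calls were kept under all 22 alternatives. Palbociclib gave -0.003 (95% interval -0.11 to 0.11), though at the same total VEGFC was called lower (-0.23, adjusted p 0.00152). Ruxolitinib libraries were also 0.21 below the proliferating ones (adjusted p 0.00185), a call lost at the same total (-0.002) and the same upper quartile (-0.04).

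VEGFB (7423; chr11:64234584-64239264, plus strand), a ligand of FLT1, had 774, 967 and 852 normalized counts in proliferating cells, 849, 831 and 839 with DMSO, 978, 1146 and 1069 under palbociclib and 1009, 933 and 1068 under ruxolitinib. The 3 DMSO libraries lay within the range of the proliferating ones (log2 fold change -0.04, interval -0.21 to 0.14), and both inhibitor groups lay above DMSO and overlapped each other. The rise with palbociclib was 0.34 (SE 0.08, adjusted p 0.00318) and was lost at the same total (0.11, adjusted p 0.277). With ruxolitinib the difference was 0.25 (interval 0.08 to 0.43, adjusted p 0.104). It was called in a fit of only the 2 groups (adjusted p 0.000863) and without proliferating library A126 (0.0413), and its adjusted p reached 0.38 among the alternatives.

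PGF (5228; chr14:74941834-74955626, minus strand), the other FLT1 ligand, was a low gene with 4.15, 7.76 and 11.4 normalized counts in proliferating cells and 39.6, 42.6 and 25.4 with DMSO. It had 4.43, 13.1 and 6.22 with palbociclib, from 4, 12 and 7 reads, and 42.4, 27.9 and 35.2 with ruxolitinib. The DMSO and ruxolitinib libraries lay at 25.4 or above and overlapped each other, and all proliferating and palbociclib libraries lay at 13.1 or below and overlapped too. PGF rose by 2.13 in senescent DMSO cells (SE 0.40, adjusted p 0.000172) and dropped by 2.13 with palbociclib (SE 0.40, adjusted p 0.000428). Under its 21 alternatives these ranged from 1.69 to 2.42 and from -2.53 to -1.69, all called. Ruxolitinib differed from DMSO by -0.01 and palbociclib from proliferating cells by -0.01, with wide intervals of -0.86 to 0.83 and -0.85 to 0.84. The leukocyte marker sum was also higher with DMSO than in proliferating cells and lower with palbociclib, and its part in the PGF values was not tested.

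ANGPT1 (284; chr8:107249482-107498055, minus strand), the activating TEK ligand, had 316, 238 and 290.4 normalized counts in proliferating cells and 1030.4, 1017 and 956 with DMSO. With palbociclib it had 1861, 1454 and 1648, and with ruxolitinib 939, 946 and 964. The palbociclib libraries were above all others, the proliferating ones below all others, and DMSO and ruxolitinib overlapped between them. ANGPT1 rose by 1.83 in senescent DMSO cells (SE 0.10, adjusted p 1.25e-10) and by a further 0.72 with palbociclib (SE 0.10, adjusted p 2.47e-05). Both calls were kept under all 22 alternatives, the palbociclib value at 0.49 to 0.81. Ruxolitinib gave -0.08 (interval -0.28 to 0.13). Against proliferating cells, ANGPT1 was 5.86-fold higher under palbociclib and 3.38-fold higher under ruxolitinib.

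ANGPT2 (285; chr8:6499632-6563409, minus strand), the competing ligand, was near the lower limit of the test, with 13.5, 14.4 and 10.5 normalized counts in proliferating cells, 13.9, 18.9 and 9.25 with DMSO, and 10.8, 9.0 and 11.7 under ruxolitinib. These 3 groups overlapped. Palbociclib libraries had 2.21, 4.38 and 5.33, from 2, 4 and 6 reads, and lay below all others. The drop with palbociclib was 1.60 (SE 0.38, adjusted p 0.00305) and was called under all 21 alternatives, from -1.85 to -1.07. In senescent DMSO cells the difference was 0.08, with an interval of -0.73 to 0.90. The exons of ANGPT2 share 658 bases (9.69%) with MCPH1 on the opposite strand, and since the strand setting is not given in the sources used here, reads there cannot be told apart. MCPH1, named for that overlap and not by the rule, also fell with palbociclib, by 0.46 on the log2 scale (adjusted p 0.000828), and its part in the result was not tested.

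ANGPTL4 (51129; chr19:8363289-8374370, plus strand), the lipase inhibitor, had 60.2, 46.6 and 55.2 normalized counts in proliferating cells, 832, 843 and 778 with DMSO, 932, 1234 and 1133 under palbociclib and 653, 678 and 730.0 under ruxolitinib. No 2 groups overlapped, and the lowest irradiated library lay more than 10-fold above the highest proliferating one. The rise in senescent DMSO cells was 3.90 (SE 0.11, adjusted p 6.89e-14), and 3.80 to 4.13 under the 22 alternatives. Palbociclib raised it by a further 0.42 (SE 0.11, adjusted p 0.00460), a call lost at the same total (0.19, adjusted p 0.140). The ruxolitinib libraries were 0.25 below DMSO (interval -0.48 to -0.03, adjusted p 0.250), called in a fit of only these 2 groups (adjusted p 0.00187). Its adjusted p reached 0.542 among the alternatives.

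FGF2 (2247; chr4:122826682-122898236, plus strand) had 1652, 1399.6 and 1768 normalized counts in proliferating cells, 4244, 4179 and 4300.4 with DMSO, 4117, 3344 and 3334 under palbociclib and 3619, 3711 and 3856 under ruxolitinib. All irradiated libraries lay far above the proliferating ones, and among them DMSO lay above both inhibitor groups, which overlapped. The rise in senescent DMSO cells was 1.41 (SE 0.08, adjusted p 5.72e-10). Palbociclib cells were 0.24 lower than DMSO cells (-0.24, SE 0.08, adjusted p 0.0266), a call lost without a trend in the spread (0.0647) and without DMSO library A116, A117 or A118 or palbociclib library A120 or A121 (adjusted p 0.0536 to 0.116). Ruxolitinib gave -0.19 (interval -0.37 to -0.01, adjusted p 0.300), with an adjusted p from 0.000255 in a fit of these 2 groups to 0.570 among the alternatives. The exons of FGF2 share 804 bases (11.8%) with NUDT6, an antisense partner on the opposite strand. NUDT6 had 44.2 normalized counts on average in proliferating cells and 21.3 with DMSO (log2 fold change -0.99, adjusted p 0.00356), the opposite direction to FGF2. Reads in the shared bases cannot be told apart.

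HGF (3082; chr7:81699010-81770438, minus strand), the MET ligand, had 5769, 5196 and 6119 normalized counts in proliferating cells, 4699.7, 4637 and 4937 with DMSO, 4090.2, 3599 and 3792 under palbociclib and 4815, 4465 and 4625 under ruxolitinib. Proliferating libraries lay above all others, palbociclib libraries below all others, and DMSO and ruxolitinib overlapped. HGF dropped by 0.26 in senescent DMSO cells (SE 0.06, adjusted p 0.00188), but by 0.03 at the same total (adjusted p 0.689) and by 0.10 at the same upper quartile (0.117). It dropped by a further 0.32 with palbociclib (SE 0.06, adjusted p 0.000806), and by 0.27 to 0.54 under the 22 alternatives, all called. Ruxolitinib gave -0.04 (interval -0.17 to 0.10).

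Set against proliferating cells, 6 of the 9 genes were higher and 2 lower with palbociclib (HGF and ANGPT2), where 73.8% of all genes were called, 35.2% as higher and 38.6% as lower. Groups did not overlap for 8 of the 9, against 70.9% of all genes. With ruxolitinib 5 were higher and 3 lower (VEGFA, VEGFC and HGF), where 72.2% of all genes were called, 32.6% as higher and 39.5% as lower. Groups did not overlap for 7 of the 9, against 76.2% of all genes, and at the same total or the same upper quartile 5 were higher and none lower. ANGPTL4 was 20.0-fold higher with palbociclib and 12.6-fold higher with ruxolitinib, and FGF2 was 2.24-fold and 2.33-fold higher. HGF was 1.49-fold lower with palbociclib and 1.23-fold lower with ruxolitinib. VEGFB was higher than in proliferating cells with palbociclib (0.30, adjusted p 0.00342) and with ruxolitinib (0.22, adjusted p 0.0246), the latter a call lost without library A125, A127, A122 or A124 (adjusted p 0.0571 to 0.142). These comparisons share the proliferating libraries with each other and with the DMSO comparison.

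Palbociclib and ruxolitinib were given at the same concentration and on the same days, and their groups were compared directly. In the palbociclib libraries ANGPT1 was 1.73-fold, ANGPTL4 1.59-fold, VEGFA 1.46-fold and VEGFC 1.34-fold higher than in the ruxolitinib libraries, and PGF was 4.35-fold, ANGPT2 2.40-fold and HGF 1.21-fold lower. Thus 4 of the 9 genes were higher and 3 lower, where 40.4% of all genes were called, 22.8% as higher and 17.6% as lower. Groups did not overlap for 7 of the 9, against 51.8% of all genes. The ANGPT2 call (adjusted p 0.0160) was lost without library A119 (0.0605) or A124 (0.0548). VEGFB (0.08, interval -0.09 to 0.26) and FGF2 (-0.06, interval -0.24 to 0.12) were not called, and at the same total FGF2 was called lower (-0.26, adjusted p 0.0144). For VEGFC the same difference between the inhibitors came with a lower level under ruxolitinib and a level under palbociclib that overlapped DMSO. For ANGPT1 it came with a higher level under palbociclib and a level under ruxolitinib that overlapped DMSO.

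Ratios of recovered reads within a library do not depend on the scaling between libraries. The ratio of ANGPT1 to ANGPT2 reads was 16.5 to 27.7 in proliferating libraries, 53.7 to 103 with DMSO, 82.2 to 105 with ruxolitinib and 309 to 841 with palbociclib, where 2 to 6 ANGPT2 reads make it imprecise. Every palbociclib library had a higher ratio than every other library. FGF2 reads were 0.269 to 0.289 of HGF reads in proliferating libraries, 0.871 to 0.903 with DMSO, 0.879 to 1.01 with palbociclib and 0.752 to 0.834 with ruxolitinib. The 2 genes thus went from clearly unequal to nearly equal read numbers in the irradiated libraries, with DMSO and palbociclib overlapping and ruxolitinib below both.

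Levels of different genes were compared per kb of the Ensembl canonical transcript (GENCODE 44). On that scale VEGFC was highest in all 4 groups, with a mean of 1018 normalized counts per kb in proliferating cells, 1187 with DMSO, 1184 under palbociclib and 883 under ruxolitinib. HGF followed in proliferating cells (976 per kb), with DMSO (816) and with ruxolitinib (794), and VEGFA in palbociclib cells (858 per kb, HGF 656). ANGPTL4 had 28.8 per kb in proliferating cells, rank 7 of 9, and 437 with DMSO, 587 under palbociclib and 367 under ruxolitinib. FGF2 went from 242 per kb in proliferating cells to 638 with DMSO, and ANGPT1 from 66.6 to 237. PGF (4.47 to 20.6 per kb) and ANGPT2 (0.754 to 2.66) were the lowest 2 in every group. The order depends on the transcript length assumed: over all annotated exons VEGFA spans 14.4 kb, not 3.61, and had 161 per kb in proliferating cells, rank 5 of 9.

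**Figure D3:**
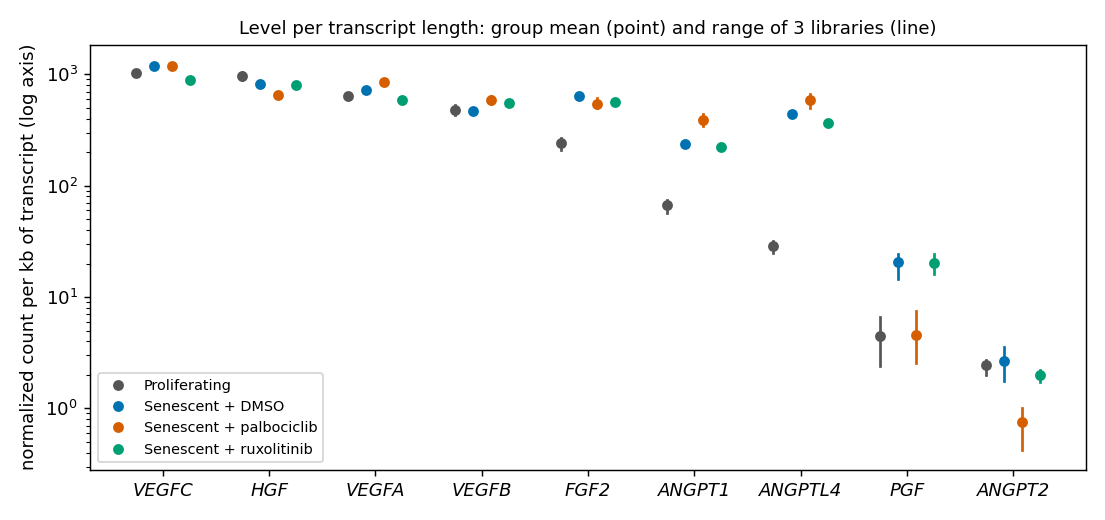
Normalized counts per kb of canonical transcript on a log axis, as the mean (point) and the range (line) of 3 libraries in each group. VEGFC leads in every group, ANGPTL4 moves from 28.8 to 437 per kb between proliferating and DMSO cells, and PGF and ANGPT2 lie lowest.

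The receptors of these ligands were examined in the same cells. Of 13 receptor genes, 10 reached a mean of 10 normalized counts. KDR, FLT4 and FGFR2 did not, with 0 to 9, 0 to 9 and 0 to 2 reads per library. In senescent DMSO cells 2 of the 10 were higher and 4 lower than in proliferating cells, with a median log2 fold change of -0.09 against -0.05 for all genes, and at the same total 3 were higher and 2 lower. With palbociclib 5 were higher and 4 lower than with DMSO (4 and 6 at the same total), with a median of -0.12 against 0.02. Of all genes 33% were higher and 39.3% lower in senescent DMSO cells, and 26% and 22.3% with palbociclib. With ruxolitinib limma, edgeR and DESeq2 called none (median -0.02), where limma called 4.52% of all genes. At an unadjusted p under 0.05 limma had 1 lower, FGFR4, and a fit of only these 2 groups called TEK. Genes under the unadjusted threshold were not counted over all genes. The fit of 2 groups called 843 of 11242 genes as higher and 998 as lower.

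TEK, the angiopoietin receptor, had 1879, 1676 and 1941 normalized counts in proliferating cells, 2403, 2359 and 2503 with DMSO, 4359, 3466 and 4045 under palbociclib and 2199, 2197 and 2219 under ruxolitinib. Its groups did not overlap, and palbociclib was the highest, the same order at the top as for its ligand ANGPT1. TEK rose by 0.41 in senescent DMSO cells (SE 0.07, adjusted p 0.000141) and by 0.70 with palbociclib (SE 0.07, adjusted p 1.89e-06), and ruxolitinib gave -0.13 (interval -0.29 to 0.02). TEK is also a marker of endothelial cells. The other 9 endothelial markers summed to 36.2 to 54.3 per proliferating library and 73.4 to 84.4 per DMSO library. Their sum was 31.0 to 54.7 under palbociclib, where TEK was highest, and 71.3 to 99.9 under ruxolitinib. Single markers differed from the sum. VWF had means of 5.04 in proliferating cells, 19.1 under DMSO and 21.2 under palbociclib. It was called higher under palbociclib than in proliferating cells (log2 fold change 1.92, adjusted p 0.00108) but not against DMSO (0.15). ESAM and TIE1 were lower under palbociclib than under DMSO (-1.51 and -2.64). Whether endothelial cells contributed to the TEK values was not tested. CDH5, EMCN, ERG and CLDN5 had means of 0.479 to 2.16. TIE1, the partner of TEK, had 11.8 to 15 normalized counts with DMSO and 0 to 2.66 with palbociclib (0 to 3 reads; adjusted p 0.000492). Its level in proliferating cells, 36.3, 37.7 and 13.3, was not called different from DMSO (log2 fold change -0.95, adjusted p 0.0983), but was by edgeR (0.0275), DESeq2 (0.0285) and without proliferating library A127 (0.0211) or palbociclib library A119 (0.0349).

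MET, the HGF receptor, had 2346, 1810.0 and 2471 normalized counts in proliferating cells, 1574, 1704 and 1541 with DMSO, 2744, 2009.8 and 2446 under palbociclib and 1429.7, 1549.6 and 1463 under ruxolitinib. It was lower in senescent DMSO cells (-0.45, adjusted p 0.00189, lost at the same total with 0.0743) and higher with palbociclib (0.57, adjusted p 0.000626), where HGF was lower. FLT1, the receptor of VEGFA, VEGFB and PGF, was higher with palbociclib (0.47, adjusted p 0.00117), from 745 to 784 normalized counts with DMSO to 937 to 1196. Gene counts do not separate membrane FLT1 from its secreted form, which traps these ligands. The co-receptors NRP1 and NRP2 were lower in senescent DMSO cells (-0.73 and -1.03, adjusted p 6.90e-08 and 2.90e-08) and lower again with palbociclib (-0.49 and -0.35, adjusted p 2.26e-05 and 0.00392).

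Among the FGF receptors, FGFRL1, a receptor without a kinase domain, rose with senescence (0.20, adjusted p 0.0125) and with palbociclib (0.57, adjusted p 6.20e-06). The senescence call was lost without library A118 (0.0627). FGFR4 was lower with palbociclib (-0.70, adjusted p 0.00810). FGFR1, at 4251 to 4882 normalized counts in all 12 libraries, moved by -0.12 in senescent DMSO cells and by 0.12 with palbociclib at the authors' scaling, and by 0.11 and -0.11 at the same total, so its direction rests on the scaling, and these calls were lost in 6 and 12 further alternatives. FGFR3 stayed at 17.7 to 32.0 normalized counts in all libraries and was not called, though at the same total it was lower with palbociclib (-0.75, adjusted p 0.0169), as it was by limma without a trend (-0.53, adjusted p 0.0391) and without library A120 (adjusted p 0.0261).

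**Figure D4:**
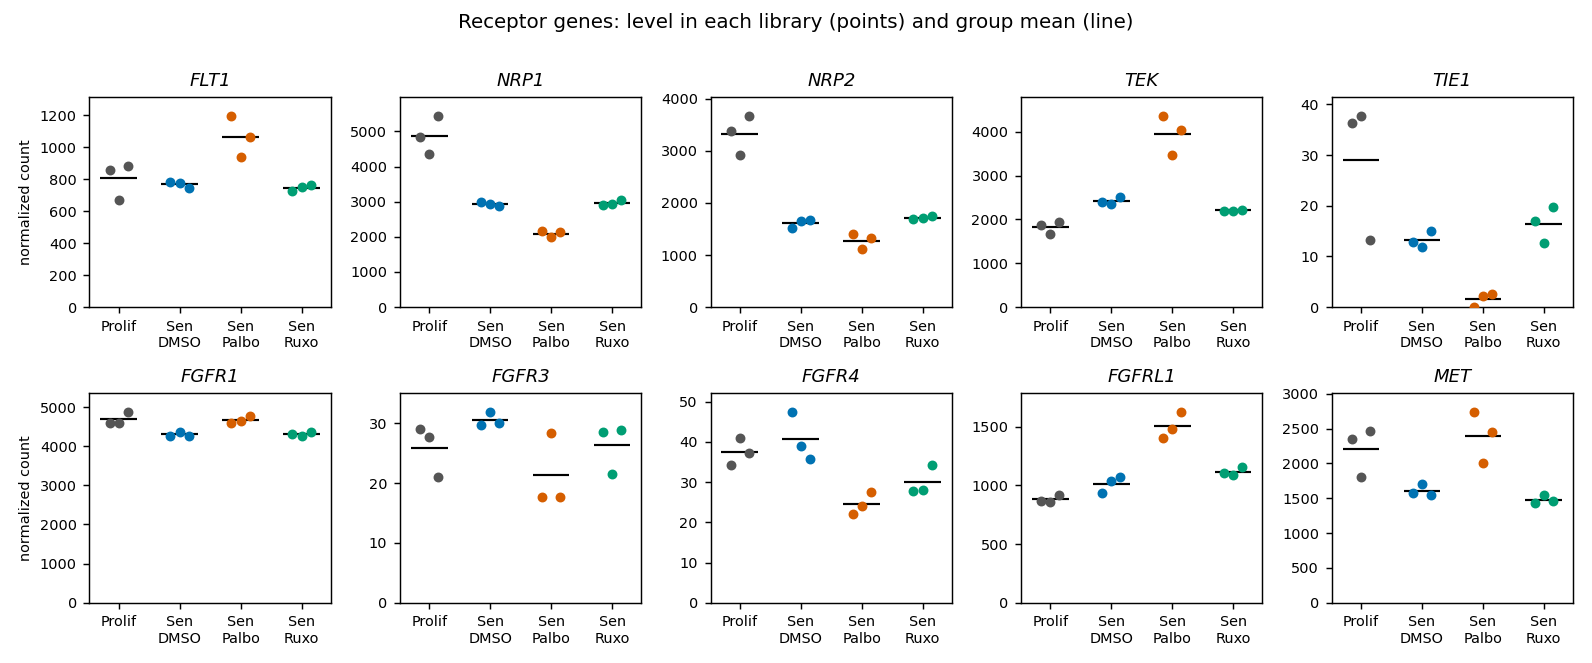
Normalized counts of the 10 receptor genes with a mean of at least 10, by library (points) and group mean (lines), with axes from 0. TEK, FLT1, MET and FGFRL1 are highest or near their highest with palbociclib, and NRP1 and NRP2 are highest in proliferating cells.

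Genes that process, store or release these ligands were counted as a list of 27, of which 18 were tested. In senescent DMSO cells 8 were higher and 5 lower (12 and 4 at the same total), with a median of 0.09. Of all genes 33% were higher and 39.3% lower there. SULF2, which removes sulfates from heparan sulfate and so alters FGF binding, went up from a mean of 14.6 to 193 (log2 fold change 3.70). SPINT1 and SPINT2, inhibitors of the proteases that activate HGF, rose from 6.03 to 34.5 and from 7.59 to 42.9. With palbociclib 10 were higher and 4 lower (6 and 5 at the same total), with a median of 0.33. The shares of all genes were 26% higher and 22.3% lower. SULF2 fell to 31.4 (-2.60), its paralog SULF1 rose from 447 to 1019 (1.18), and ADAMTS3, the protease that primes the VEGFC precursor, fell from 97.4 to 46.1 (-1.08). With ruxolitinib 1 was higher, the glypican GPC1 (0.31), and 2 were lower, ADAMTS3 (-0.70) and SULF1 (-0.44). Among all genes 1.1% were higher and 3.42% lower with ruxolitinib.

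In senescent DMSO cells 8 of 16 other ligands with a test were higher and 7 lower (median 0.14). With palbociclib 2 were higher and 7 lower (median -0.30, and 0 and 10 at the same total). Of all genes 33% were higher and 39.3% lower in senescent DMSO cells, and 26% and 22.3% with palbociclib. The heparin-binding factor PTN fell from 3610 to 891 normalized counts in senescence (-2.02), and MST1, the HGF-like ligand of RON, rose from 19.2 to 71.6 (1.92). FGF18 went from 1.06 to 15. With palbociclib the heparin-binding factor MDK fell by 0.83 on the log2 scale and FGF7, an epithelial growth factor made by fibroblasts, by 0.65. MDK and PTN were the 2 of this list called with ruxolitinib (-0.39 and -0.36), where 4.52% of all genes were called. In senescent DMSO cells 6 of the 13 angiogenesis inhibitors with a test were higher and 6 lower (median -0.01). With palbociclib 5 were higher and 4 lower (median -0.01, and 5 and 7 at the same total). With ruxolitinib COL18A1 (0.30), SPARC (0.20) and TIMP3 (0.19) were higher, and CXCL10 (-1.86) and ADAMTS1 (-0.26) lower. These 5 of 13 compare with 4.52% of all genes called, and in 9 alternatives the count was 3. The chemokine CXCL10 rose from 6.94 to 459 normalized counts and fell to 52.7 with palbociclib and 126 with ruxolitinib. TIMP3, which blocks VEGF binding to KDR, rose by 1.49 in senescence, and THBS2 (1.52) and ADAMTS8 (1.51) rose with palbociclib. THBS2 had fallen by 1.37 in senescent DMSO cells. Its level under palbociclib was not called different from proliferating cells (0.15, limma adjusted p 0.122), and that of ADAMTS8 was called higher (2.19).

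Genes of pathways that act on the 9 ligands were counted in the same way. Of all genes 33% were higher and 39.3% lower in senescent DMSO cells, and 26% and 22.3% with palbociclib. In senescent DMSO cells 10 of the 26 hypoxia response genes with a test were higher and 7 lower (median 0.19), and 18 and 3 at the same total. With palbociclib 14 were higher and 6 lower (median 0.17), and 3 and 10 at the same total, so which direction prevails depends on the scaling used. The glucose transporter SLC2A1 rose with palbociclib (0.64), and the hypoxia marker CA9 fell from 31.5 to 12.2 normalized counts. Of 12 PPAR pathway genes tested, 7 were higher and 3 lower in senescence (median 0.26). The fatty acid carrier SLC25A20 (1.23) and CPT1A (0.80) were among the higher. The lower were the receptor genes PPARG (-0.59) and PPARD (-0.24) and also ACSL3 (-0.40), and PPARA was not called (0.02). With palbociclib 3 were higher and 3 lower (0 and 7 at the same total). Higher were SLC25A20 (0.33), ACSL3 (0.21) and HADHA (0.20), and lower were CPT1A (-0.52), PLIN2 (-0.52) and PDK4 (-2.51). ANGPTL4, itself a PPAR target but not in this list, was higher, and the part of PPAR in that was not tested. PPARG, PPARD, PPARA, ACSL3 and HADHA were named after their values were seen. PDK4 went from 1.30 normalized counts in proliferating cells to 16.1 with DMSO and 2.06 with palbociclib. The next list holds 10 feedback and response genes of the ERK pathway, through which FGF2 and HGF signal, called ERK feedback genes here. Of these 10, 4 were higher and 2 lower in senescence (8 and 2 at the same total). With palbociclib 1 was higher, ETV5 (0.50), and 8 were lower, where 26% of all genes were higher and 22.3% lower. The median was -0.37 against 0.02 for all genes. The largest falls were those of the phosphatase DUSP4 (-1.23), EGR1 (-0.64) and SPRY2 (-0.58). Limma, edgeR and DESeq2 called none of the 10 with ruxolitinib. Of all genes limma called 4.52%, so a count of 0 among 10 is near that share. At an unadjusted p under 0.05 limma had 2 lower, DUSP5 and SPRY2, named here after their values were seen. Genes under that threshold were not counted over all genes, so these 2 have no share beside them.

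**Figure D5:**
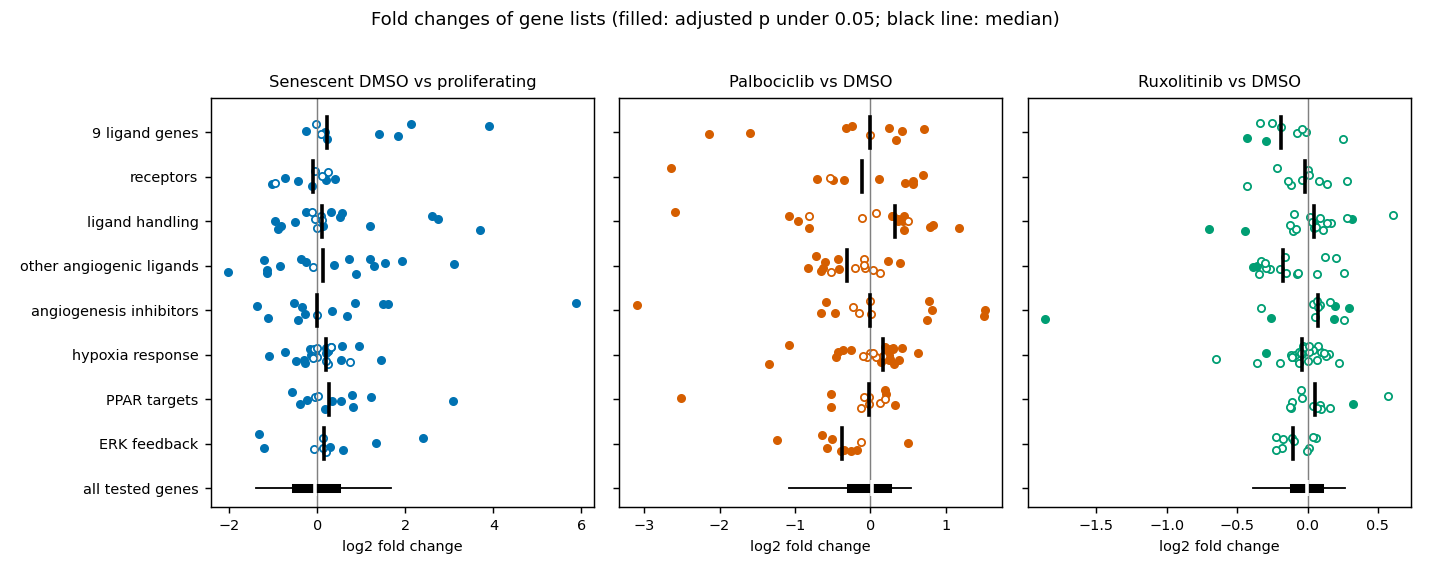
Log2 fold changes of the 9 ligand genes and of 7 gene lists in 3 comparisons, with filled points for an adjusted p under 0.05, black lines for medians, and for all tested genes a bar from the 25th to the 75th and a line from the 5th to the 95th percentile. ANGPTL4 is the rightmost of the 9 in senescence, and 8 of 10 ERK feedback genes are filled and left of 0 with palbociclib.

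The genes whose profile over the 12 libraries was most like that of a ligand were found by the root mean square difference of log2 values centred on each gene's mean, among 11222 other genes. For HGF these were SON (0.0521) and SNX18 (0.0542), for VEGFB COX6B1 (0.0569) and TBCB (0.0718), for VEGFA BHLHE40 (0.0673) and SPOCD1 (0.0747), and for FGF2 ENC1 (0.0824) and PFKFB2 (0.101). ENC1 had 1248, 3009, 2707 and 2785 normalized counts on average in proliferating, DMSO, palbociclib and ruxolitinib cells, the same order as FGF2 at both ends. For VEGFC they were SLC3A2 (0.0896) and VMP1 (0.10), and for ANGPT1 SLC9A7 (0.137) and PSG5 (0.168). Differences were larger for ANGPT2, with TMEFF2 (0.305) and PRDM1 (0.315), and for ANGPTL4, with PPP1R3C (0.267) and TMEM178A (0.285).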

How the data were processed

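RNA from 12 libraries of IMR90 cells was analysed. The authors deposited normalized counts per gene, treated here as a signal and not as counts. The submitters' processing notes name Trimmomatic 0.38.1, HISAT2 2.2.1, featureCounts 2.0.3, DESeq2 2.11.40.8 and the build hg38, with no roles. Annotation and strand setting are not given in the sources used here. Each of the 160380 deposited values above 0 was a whole multiple of what a read was worth in its column (100%, tolerance 0.01), so the values are reads divided by a factor per library, and reads were recovered. In library A116 a read was worth 0.990, so that column alone says little. The table ends at Entrez gene 140467, and genes with higher numbers are not analysed here.

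limma 3.58.1 (R 4.3.3) was fitted with a trend to log2(normalized count + 1), with 4 group means over 12 libraries and Benjamini-Hochberg adjustment over 11242 genes with a mean of at least 10. Fold changes on this scale understate those of low genes. Calls have an adjusted p under 0.05. The script was tested on simulated data. Over 12 replicate pairs the chi-square per degree of freedom of the reads was 1.98 to 25.1, and all libraries were kept. It was 6.43 to 25.1 within palbociclib and 2.95 to 17.1 within proliferating cells. Within DMSO it was 2.43 to 2.81 and within ruxolitinib 1.98 to 2.76. The main fit shares 1 estimate of the spread per gene over these 4 unequal groups. Named were the 9 ligands, all receptors, up to 3 called genes of largest change per list and comparison, and 2 nearest profiles per ligand, of which those of PGF are not reported here. The members and lists were chosen with earlier results of these data known. Alternatives were pseudocounts 0.1 and 5, no filter, a mean of at least 50, 2 other scalings, no trend, the edgeR 4.0.16 quasi-likelihood test and DESeq2 1.42.0 on recovered reads, only 2 groups, and each library left out.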

Additional observations from a re-analysis of the deposited data

Results flagged for a closer look

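The effects of the inhibitors on 7 of the 9 ligand genes differed from each other in the direct limma comparison of palbociclib with ruxolitinib libraries. The log2 difference, palbociclib minus ruxolitinib, was 0.79 for ANGPT1, 0.67 for ANGPTL4, 0.54 for VEGFA and 0.42 for VEGFC. It was -2.12 for PGF, -1.26 for ANGPT2 and -0.28 for HGF. In each of these genes all 3 palbociclib libraries lay on the same side of all 3 ruxolitinib libraries. Over all genes tested, 40.4% differed in this comparison, so a difference is common among genes of any kind.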

How the results depend on the processing

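Of 1176 values of the 9 genes under 22 alternatives (21 for PGF and ANGPT2, which a mean of at least 50 removes), 1117 kept direction and call, 30 lost a call, 6 gained 1 and 23 turned direction. The number of genes called changed from 2 to 5 for ruxolitinib against DMSO with only those 2 groups fitted, and from 8 to 5 for ruxolitinib against proliferating cells at the same total and also with equal upper quartiles. Leaving out each library gave 7 to 7 calls for DMSO against proliferating cells, 7 to 8 for palbociclib and 2 to 3 for ruxolitinib against DMSO, 6 to 7 between the inhibitors, and 8 to 8 and 6 to 8 for palbociclib and ruxolitinib against proliferating cells. VEGFA under ruxolitinib against proliferating cells turned to 0.079 (same total) and 0.044 (same upper quartile). Apart from FGFR1, the other turns were of values near 0 that were not called. VEGFB in senescence became 0.19 at the same total (called, adjusted p 0.0497), 0.12 at the same upper quartile, 0.021 with edgeR, 0.021 with DESeq2 and -0.11 to 0.048 with a library left out (above 0 without A126), and palbociclib against ruxolitinib -0.12 at the same total. VEGFC with palbociclib was -0.031 to 0.030 with a library left out (above 0 without A117 or A119). PGF with ruxolitinib was 0.0014 at the same upper quartile and -0.24 to 0.14 with a library left out (above 0 without A116, A117 or A123). PGF with palbociclib against proliferating cells was 0.074 at the same upper quartile, 0.030 with edgeR, 0.040 with DESeq2, and -0.40 to 0.29 with a library left out (above 0 without A126, A127, A119 or A121). ANGPT2 in senescence was -0.15 to 0.33 with a library left out (below 0 without A127 or A117). Of the receptors, FLT1 in senescence became 0.17 (same total), 0.096 (same upper quartile) and -0.18 to 0.017 with a library left out (above 0 without A127). NRP1 with ruxolitinib became -0.013 (same total) and -0.0099 to 0.024 with a library left out (below 0 without A118 or A124). FGFR1 in senescence became 0.11 (same total, called) and 0.030 (same upper quartile), with palbociclib -0.11 (same total, called), and with ruxolitinib -0.022 (same total) and -0.0068 to 0.014 with a library left out (below 0 without A116, A118 or A124). Apart from the smaller fits, the cause was not tested.

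Counts of list genes called moved by over 1.5 times at the same total for hypoxia genes with palbociclib (20 to 13) and ERK feedback genes in senescence (6 to 10). With ruxolitinib against DMSO the counts are small and ranged over the alternatives from 1 to 6 for ligand handling, 2 to 6 for other ligands, 3 to 7 for inhibitors, 0 to 7 for hypoxia, 0 to 2 for PPAR and ERK genes and 0 to 1 for receptors. Over all genes, ruxolitinib against DMSO had 124 higher and 384 lower calls, 843 and 998 with only these 2 groups fitted, and 38 to 61 and 220 to 251 without each library of either group in turn. No paired analysis was possible because the columns of the table carry no replicate numbers. PGF and ANGPT2 rest on 2 to 55 reads per library, which limits their precision.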
